A study of Mus musculus with 8 samples.

Results

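The genes described here code for the proteins that join neighbouring cells of the ovarian follicle: the claudins Cldn1, Cldn11 and Cldn12, the tight junction proteins Ocln and Tjp1, and the connexins Gja1, Gja4 and Gjc1. These 8 genes were taken by symbol from 41591 gene rows, and all 8 were among the 16870 genes that passed the filter on low counts. They were chosen by the counts of Cldn1, which were lower in the mutant ovaries of these same samples, so the difference between mutant and control for these genes is given as a description and supports nothing. RNA was measured by poly(A)-selected, stranded RNA sequencing of whole ovaries from female C57BL/6 mice, with 4 samples per group. Control samples were from littermates labelled wild type and carrying Pgr-Cre, a Cre recombinase under control of Pgr, which codes for the progesterone receptor. DKO samples were from mice with a conditional double knockout of Insr, the insulin receptor gene, and Igf1r, the receptor gene for insulin-like growth factor 1. Every mouse was about 3 weeks old and was superovulated with 4 IU of equine chorionic gonadotropin (eCG) and, 48 h after it, 5 IU of human chorionic gonadotropin (hCG). Ovaries were collected 12 h after hCG, close to ovulation. Cre driven by Pgr acts in cells that have expressed Pgr, among them granulosa cells of follicles that have received the ovulatory signal, whereas a whole ovary also holds oocytes, theca, stroma, vessels and surface epithelium. The labels do not name the animals or litters behind the samples, so p-values measure the spread between these samples, which may be in part technical.

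Tight junctions seal the space between neighbouring cells. Claudins are the membrane proteins that form the strands of the seal and set which ions pass. Occludin, coded by Ocln, lies in the same strands, and ZO-1, coded by Tjp1, is the scaffold that ties them to actin under the membrane. Gap junctions are channels built of connexins through which small molecules pass from cell to cell. In the follicle, connexin 43, coded by Gja1, couples granulosa cells to each other. Connexin 37, coded by Gja4, couples the oocyte to the granulosa cells around it and is also found in vessel walls. Connexin 45, coded by Gjc1, is known from smooth muscle, heart and vessels. The ovulatory surge of luteinizing hormone, which hCG stands in for, lowers coupling between the cells of the follicle.

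Cldn1 (gene ID 12737) lies on chromosome 16 from 26356645 to 26371839 on the minus strand in the coordinates of the count tables (GRCm38.p5), with 3242 bases of exon. The 250 bases before its start, chr16:26371840-26372089 on the minus strand in the RefSeq promoter table (GRCm38.p6), are shown because Cldn1 is the member the group was built around. The capitals mark the GC boxes.
Cldn1 promoter: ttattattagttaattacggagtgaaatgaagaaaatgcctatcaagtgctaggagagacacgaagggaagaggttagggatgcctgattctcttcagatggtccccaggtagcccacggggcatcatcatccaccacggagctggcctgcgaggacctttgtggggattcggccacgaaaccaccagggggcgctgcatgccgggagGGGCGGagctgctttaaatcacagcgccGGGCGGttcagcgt
The motifs searched, on both strands, were the GC box GGGCGG, the E-box CAGGTG, the FOXO motif GTAAACA and the full steroid receptor site. The Cldn1 window held 2 GC boxes, at positions -42 to -37 and -14 to -9 before the start, and no match to the other motifs. Of 32851 such windows over all genes, 32.7% held a GC box, 17.2% the E-box, 3.17% the FOXO motif and 0.387% the steroid receptor motif. The GC content of the Cldn1 window was 55.6% with 14 CpG, beside a median of 52.4% over all windows. Of the 8 members, 7 had a promoter in the table. GC boxes were also found in at least 1 window of Cldn12, Ocln, Tjp1 and Gja4, and the E-box in 1 window of Ocln. A match describes the letters of the window and is no evidence of binding.

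Cldn1 had 1038, 1050, 1084 and 1131 raw counts in controls 1 to 4, and 637, 317, 369 and 468 in DKO 1 to 4. In CPM (counts normalised to the size of each library and scaled with TMM factors, which correct for differences in library composition), the controls were at 27.9, 29.7, 29.8 and 34.5 and the DKO ovaries at 16.2, 9.33, 9.73 and 13.4. Every DKO ovary was below every control, with a gap of 11.7 CPM between the lowest control and the highest DKO ovary. The mean fell from 30.5 ± 2.83 CPM in controls to 12.2 ± 3.24 in DKO (SD, n = 4 each), a log2 fold change of -1.32 ± 0.18 (SE), DKO over control. This is the value that chose the group: edgeR's quasi-likelihood test over all genes gave an adjusted p of 0.0162, and the gene stood at rank 30 of 16870 by p and at rank 9 among those with a negative fold change. Relative to the mean, the DKO ovaries were more spread than the controls, with a coefficient of variation of 26.7% against 9.28%. In whole ovaries, fewer cells of a type and less RNA per cell cannot be told apart.

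Cldn1 kept its direction in all 21 alternative analyses, with log2 fold changes from -1.49 to -1.21, and passed the adjusted p of 0.05 in 18 of them. The other 3 each left out 1 library: without control 2 the adjusted p was 0.0734, without control 4 it was 0.0637 and without DKO 3 it was 0.0590. All 21 reuse the values by which Cldn1 was chosen, and its groups did not overlap, so the kept direction and these calls support nothing.

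**Figure D1:**
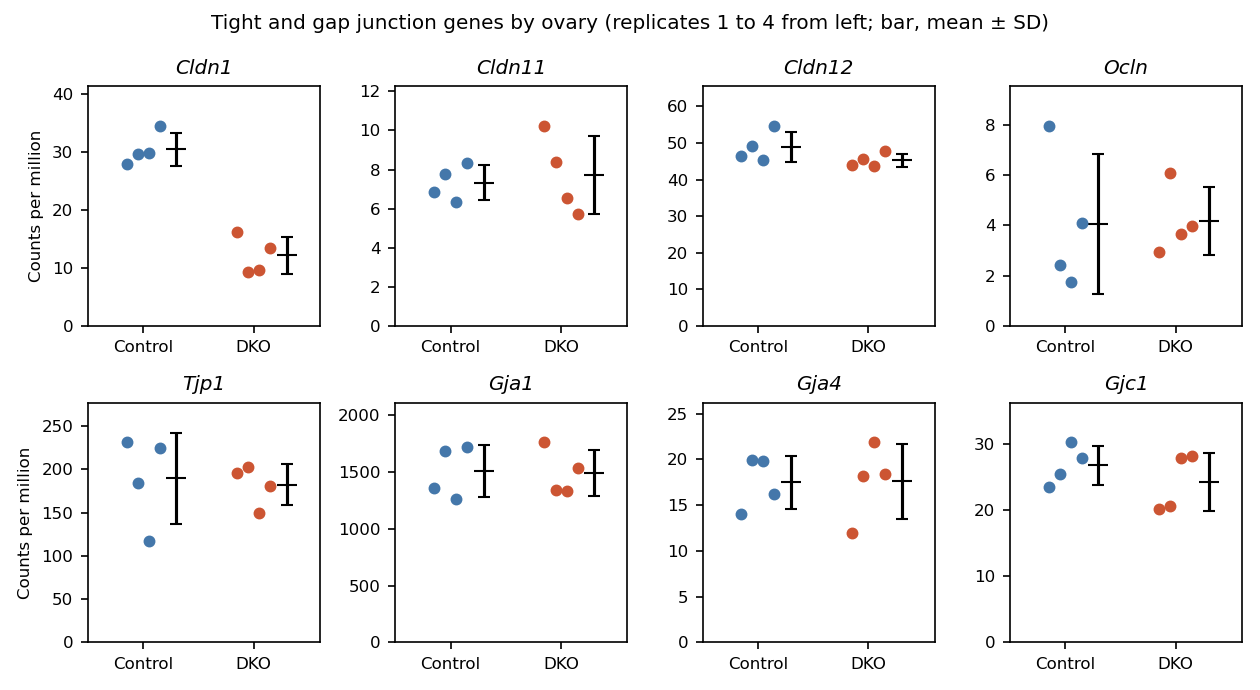
TMM-scaled CPM of the 8 junction genes in each ovary, controls in blue and DKO in orange, replicates 1 to 4 from left to right, with the mean ± SD beside them and an axis from 0 in each panel. In the Cldn1 panel the 4 controls lie between 27.9 and 34.5 and the 4 DKO ovaries between 9.33 and 16.2, while in the other 7 panels the groups overlap.

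Cldn11 codes for the claudin that seals myelin and the barrier between Sertoli cells of the testis. It lies on chromosome 3 from 31149920 to 31164326. Its level was 6.85, 7.77, 6.35 and 8.36 CPM in the controls and 10.2, 8.36, 6.54 and 5.74 in the DKO ovaries. The DKO ovaries held both the highest and the lowest value, and the log2 fold change was 0.07 ± 0.21 (SE).

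Cldn12 codes for a claudin that lacks the tail by which most claudins bind ZO-1. It lies on chromosome 5 from 5505015 to 5514976. The controls were at 46.4, 49.3, 45.4 and 54.7 CPM and the DKO ovaries at 44.0, 45.6, 43.6 and 47.7. The ranges overlapped, with a log2 fold change of -0.11 ± 0.09 (SE). It was the steadiest of the 8 genes among replicates, with a coefficient of variation of 8.50% in controls and 4.11% in DKO.

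Ocln, the occludin gene, lies on chromosome 13 from 100496504 to 100553691 and had the fewest counts per library of the members in 7 of the 8 libraries. It was at 7.95, 2.43, 1.76 and 4.09 CPM in controls and at 2.94, 6.10, 3.64 and 3.99 in DKO. Control 1 and DKO 2 were the highest of their groups. The log2 fold change was 0.04 ± 0.45 (SE), and it ran from -0.21 to 0.61 over the alternatives. The coefficient of variation was 68.4% in controls and 32.6% in DKO, the highest of the 8 genes in each group.

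Tjp1, the ZO-1 gene, lies on chromosome 7 from 65296165 to 65527808. Controls were at 231, 185, 117 and 225 CPM and DKO ovaries at 196, 203, 149.8 and 181. Control 3 was the lowest of all 8 ovaries and DKO 3 the lowest of its group. The log2 fold change was -0.06 ± 0.20 (SE), and without control 3 it was -0.23.

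Gja1, which codes for connexin 43, lies on chromosome 10 from 56377300 to 56390419. The controls were at 1362, 1686, 1263 and 1726 CPM and the DKO ovaries at 1762, 1344, 1335 and 1536. The groups covered almost the same range, with means of 1509 ± 231 and 1494 ± 201.2 CPM (SD, n = 4 each) and a log2 fold change of -0.01 ± 0.15 (SE). With 45649 to 69410 counts per library, this was the most deeply counted member, so counting error was a small part of its spread.

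Gja4, which codes for connexin 37, lies on chromosome 4 from 127311420 to 127314039. It was at 14.1, 19.9, 19.9 and 16.2 CPM in controls and 11.9, 18.2, 21.8 and 18.4 in DKO, with a log2 fold change of 0.01 ± 0.19 (SE). Control 1 and DKO 1 were the lowest of their groups. These libraries were also low in Zp3, which codes for a protein of the oocyte coat, at 15.3 and 15.6 CPM. DKO 2 had 19.4 CPM of Zp3 and the other 5 libraries 32.1 to 59.4. Summed over all 11 oocyte markers, control 1, DKO 1 and DKO 2 had 137, 144 and 173 CPM and the other 5 libraries 297 to 489.8. The part of oocyte content in the Gja4 values was not tested.

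Gjc1, which codes for connexin 45, lies on chromosome 11 from 102799472 to 102819686. The controls were at 23.5, 25.6, 30.3 and 27.9 CPM and the DKO ovaries at 20.2, 20.7, 27.98 and 28.3, with a log2 fold change of -0.14 ± 0.15 (SE). DKO 1 and DKO 2 lay below the other 6 ovaries. Summed endothelial markers were at 686, 730.1, 839 and 873 CPM in controls and 711, 869, 1047 and 1114 in DKO, so that DKO 1 and DKO 2 were the lowest of their group but DKO 2 was above controls 1, 2 and 3. Of the list, 11 of the 12 markers had counts, the exception being Cldn5. The part of vessel content in the Gjc1 values was not tested.

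Among the 8 members, 1 passed the adjusted p of 0.05, beside 1.26% of all genes tested (212 of 16870), with 0.498% called lower and 0.759% called higher. Likewise the groups did not overlap for 1 member, where 9.24% of all genes tested had groups that did not overlap and 3.54% did so with DKO lower. Since Cldn1 chose the group, nothing is read from these counts. The other 7 members had log2 fold changes from -0.14 to 0.07, with SE from 0.09 to 0.45. The median over all 8 was -0.04, beside -0.02 over all genes tested.

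Levels of different genes can be compared only per length, here as RPKM (CPM divided by the exon length in kilobases). In controls the order was Gja1 at 486 ± 74.5, Tjp1 at 23.8 ± 6.56, Cldn12 at 11.5 ± 0.98, Gja4 at 10.4 ± 1.71, Cldn1 at 9.40 ± 0.873, Gjc1 at 7.15 ± 0.779, Cldn11 at 3.92 ± 0.482 and Ocln at 0.742 ± 0.507 RPKM (SD, n = 4 each). Cldn12 and Gja4, and Gja4 and Cldn1, did not differ beyond the range of their replicates, and every other pair of neighbours had separate ranges. Among all genes tested, the mean level of Gja1 per length was at percentile 99.5, that of Tjp1 at 80.9, that of Cldn1 at 53.3 and that of Ocln at 22.7.

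In DKO ovaries the order was the same save for Cldn1, which stood after Cldn11. Gja1 was at 481 ± 64.8, Cldn11 at 4.12 ± 1.07 and Cldn1 at 3.75 ± 1.00 RPKM, and the ranges of Cldn11 and Cldn1 overlapped. In controls each Cldn1 value was above each Cldn11 value.

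Set against the claudins that had counts, Cldn1 was among the leading ones of the control ovary. Of 33 claudin gene rows, which leave out the claudin-domain gene Cldnd1, 13 passed the filter and 12 were listed at 0 in all 8 libraries. Cldn5 and Cldn7 were among those at 0. No absence is read from their zeros, for the reason given further below, so sums, ranks and shares hold only for claudins as counted. Summed claudin RPKM was 73.3, 42.9, 39.7 and 46.8 in controls and 36.8, 58.9, 35.4 and 36.3 in DKO. Control 1 and DKO 2 stood above the rest of their groups.

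Cldn1 made up 11.7%, 21.3%, 23.1% and 22.7% of that sum in the controls and 13.5%, 4.88%, 8.47% and 11.4% in the DKO ovaries. The value of control 1 lay below that of DKO 1, so the shares overlapped although the Cldn1 levels did not. Cldn12 had a mean share of 24.1% in controls and 26.6% in DKO. Cldn15, a claudin of ion-permeable epithelia, had 14.7% and 21.9%.

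**Figure D2:**
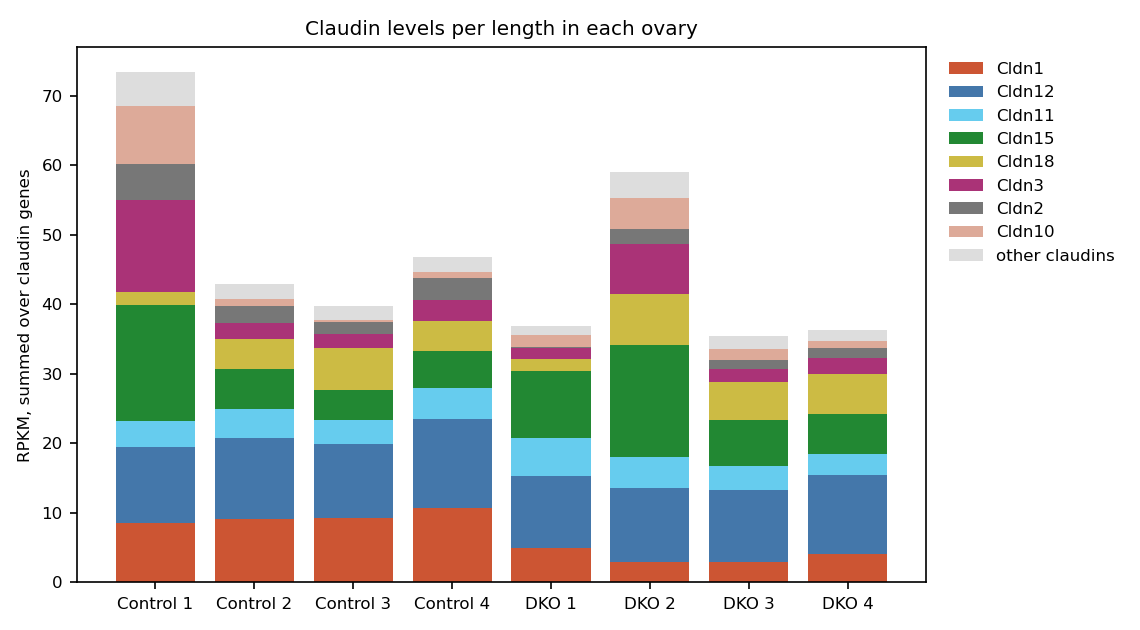
Stacked bars of claudin RPKM in each of the 8 ovaries, each colour 1 claudin gene and grey the remaining ones. The bar height is the family sum as counted, to which Cldn5 and Cldn7, listed at 0, add nothing. The Cldn1 segment at the base is shorter in the 4 DKO bars, and the bars of control 1 (73.3) and DKO 2 (58.9) are taller through Cldn3, Cldn10 and Cldn15.

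The connexin family was made up almost wholly of Gja1. Of 20 connexin gene rows, 11 passed the filter and 3 were at 0 in all libraries. Gja1 held 95.5 ± 0.82% of summed connexin RPKM in controls and 95.6 ± 1.14% in DKO (SD, n = 4 each). Gja4 held 2.07% and 2.13%, and Gjc1 1.43% and 1.31%.

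Control 1 and DKO 2 carried RNA of genes known from the oviduct and other epithelia. Ovgp1, which codes for oviductal glycoprotein, was at 1147 CPM in control 1 and 724 in DKO 2, and at 2.51 to 23.8 in the other 6 libraries. The 10 oviduct markers summed to 28.2 to 1338 CPM over the controls and 33.3 to 856 over the DKO ovaries. The 11 markers of surface and bursa epithelium summed to 331 to 1278 and 402 to 805 CPM, again with control 1 and DKO 2 highest. Averaged over all 8 libraries, the keratin gene Krt19 was the most abundant of them per length.

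Ocln was highest in these same libraries of its groups. Some epithelial junction genes outside the 8, named after their values were seen, had the same order. Cldn3 was at 16.8 CPM in control 1 and 9.16 in DKO 2, against 2.03 to 3.78 in the other 6. Cldn10 was at 11.95 and 6.33 CPM, against 0.44 to 2.46. Cdh1, the E-cadherin gene, was at 51.0 and 28.4 CPM, against 4.21 to 10.04. Others had it in controls but not in DKO. Control 1 was the highest control for Cldn4 (2.90 CPM), for Marveld2, the gene of tricellulin (4.65), and for F11r, the gene of a junctional adhesion molecule (215). In DKO, Cldn4 was at 0.94 CPM in DKO 2 and at 1.21 in DKO 3 and DKO 4, Marveld2 was highest in DKO 3, and F11r was highest in DKO 1.

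Cldn1 did not share that pattern, since control 1 had the lowest value of the controls and DKO 2 the lowest of the DKO ovaries. Without these 2 libraries, a choice made after seeing the data, the Cldn1 log2 fold change was -1.24 with an adjusted p of 0.0404 in edgeR's test, and 97 genes in all were called in place of 212. This fit reuses values by which Cldn1 was chosen. The part of oviduct and other epithelial tissue in the Cldn1 values was not tested.

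**Figure D3:**
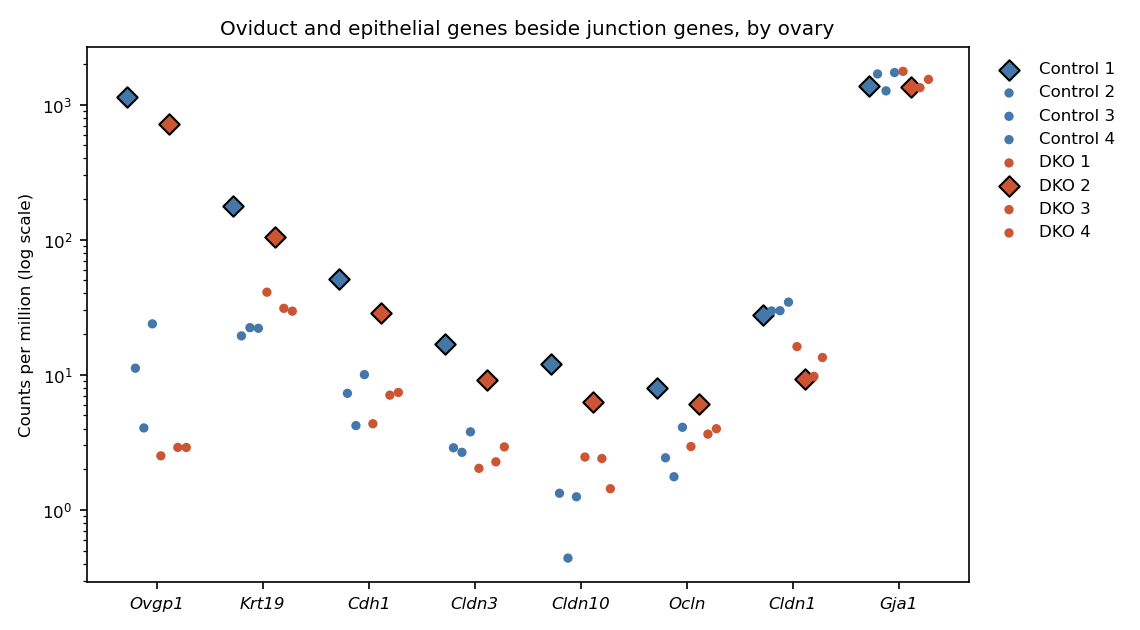
CPM on a log axis of oviduct and epithelial genes and of Ocln, Cldn1 and Gja1 in each ovary, controls in blue and DKO in orange, with diamonds for control 1 and DKO 2. The diamonds lie above the other points for Ovgp1 (1147 and 724 against 2.51 to 23.8), Krt19, Cdh1, Cldn3, Cldn10 and Ocln, and not for Cldn1 or Gja1.

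The other genes of cell junctions were read from lists written for this description. EdgeR called 1.26% of all genes tested (212 of 16870), and DESeq2 called 1072 of 16806 genes tested. The DESeq2 counts below stand beside that larger share, and nothing is read from them. No share of all genes is given for an unadjusted p under 0.05, so nothing is read from counts at that cut, here and below. Of 11 other claudins that passed the filter, 0 were called by edgeR, and 1 had an unadjusted p under 0.05. This list holds Cldnd1, which the claudin sums and shares above leave out. DESeq2, with another filter, called 0 of the 17 it fitted. Their median log2 fold change was -0.30, with 3 above and 8 below 0. The median turned on single libraries: it was 0.08 without control 1, -0.53, -0.62 and -0.54 without controls 2, 3 and 4, and -0.78 without DKO 2. Cldn4 had the smallest adjusted p, 0.300, at 1.79 ± 0.764 CPM in controls and 1.012 ± 0.251 in DKO (SD, n = 4 each). Cldnd1, a claudin-domain gene, was the most abundant per length, at 120.0 ± 23.0 and 100.3 ± 19.3 CPM (adjusted p = 0.529).

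Cldn2, which codes for a claudin that forms cation channels, had a mean fold change as large as that of Cldn1, log2 -1.32 ± 0.61 (SE), and is named here after its values were seen. Its values were 16.8, 8.22, 5.33 and 10.3 CPM in controls and 0.63, 7.04, 4.09 and 4.59 in DKO. The groups overlapped and the adjusted p was 0.352.

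Cldn5, the main claudin of endothelium, and Cldn7, an epithelial claudin, were listed at 0 in all 8 libraries, although endothelial and epithelial markers had counts. In the annotation of the count tables, the exons of each of these genes lie on 2 sequences. Of 1646 genes with exons on more than 1 sequence, 52.9% were at 0 in every library, against 27.0% of the 39945 genes on 1 sequence. Whether the counting sets these zeros was not tested, and no absence of Cldn5 or Cldn7 is read from them. The 8 members each lie on 1 sequence.

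Of 31 other tight junction genes tested, edgeR called 0, with 9 at an unadjusted p under 0.05. DESeq2 called 4 (Cgnl1, Jam2, Jam3 and Magi2), beside 1072 of all 16806 genes it tested. The median log2 fold change was -0.14, and it was 0.07 without control 1, -0.21 without control 3, -0.09 without control 4 and -0.07 without DKO 3. Jam3, which codes for a junctional adhesion molecule, had the smallest adjusted p at 0.108. It was at 74.7, 84.8, 91.3 and 90.1 CPM in controls and 58.7, 55.1, 62.3 and 74.9 in DKO, with control 1 just below DKO 4. The most abundant per length was Ybx3, the gene of a transcription factor that binds ZO-1, at 258 ± 44.4 and 232 ± 23.5 CPM (adjusted p = 0.670).

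Of 10 other connexins and pannexins tested, edgeR called 0, with 3 at an unadjusted p under 0.05. DESeq2 called 0 of the 17 it fitted. The next values are from edgeR. The median log2 fold change was -0.50, with 3 above and 7 below 0, while it was 0.27 without control 1 and 0.06, over the 7 still tested, without control 1 and DKO 2. Panx1, the gene of a membrane channel that is no gap junction, was the most abundant per length, at 22.4 ± 1.87 and 20.1 ± 1.74 CPM (adjusted p = 0.569).

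Among 16 adherens junction genes tested, edgeR called 1, and among 4 desmosome genes it called 2, beside 1.26% of all genes tested. The lists were written with earlier results of these data known, so nothing is read from these counts. Cdh2 codes for N-cadherin, the cadherin of granulosa cells. It was at 107, 124, 104 and 152 CPM in controls and 72.7, 77.5, 57.5 and 75.8 in DKO, so that every DKO ovary was below every control. Cdh2 fell with a log2 fold change of -0.78 ± 0.14 (SE) and an adjusted p of 0.0409 in edgeR's test. The adherens junction genes had 6 at an unadjusted p under 0.05 and a median log2 fold change of -0.06, which lay between -0.14 (without control 3) and 0.09 (without control 1) when 1 library was left out. DESeq2, which called 1072 of 16806 genes in all, called Cdh2, Cdh3 and Jup of these genes. It also called Dsc2 and Pkp2 of the 10 desmosome genes it fitted. Jup, which codes for plakoglobin and is shared by both kinds of junction, was at 72.1 to 81.9 CPM in controls and 95.0 to 104 in DKO, with no overlap (log2 fold change 0.39 ± 0.08, SE, adjusted p = 0.0576 in edgeR). Ctnnb1, the gene of β-catenin, which binds cadherin tails, was the most abundant of them per length, at 726 ± 44.2 and 913 ± 134 CPM (adjusted p = 0.243).

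Desmosomes tie cells together through keratin. Pkp2, which codes for the desmosomal plaque protein plakophilin 2, was at 51.5, 64.7, 77.3 and 61.6 CPM in controls and 43.4, 42.0, 35.5 and 40.9 in DKO. It fell with a log2 fold change of -0.66 ± 0.13 (SE, adjusted p = 0.0482 in edgeR). Dsc2, which codes for the desmosomal cadherin desmocollin 2, rose with a log2 fold change of 1.32 ± 0.27 (SE, adjusted p = 0.0498). It was at 6.58, 8.73, 10.7 and 8.66 CPM in controls and 11.9, 20.2, 30.4 and 24.1 in DKO.

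These 3 calls lay close to the threshold and each was kept in 2 of the 8 fits that left out 1 library. Cdh2 and Pkp2 passed only without control 1 or without control 3, and Dsc2 only without control 3 or without DKO 1. Their log2 fold changes over these 8 fits ran from -0.85 to -0.66 for Cdh2, from -0.73 to -0.55 for Pkp2 and from 1.12 to 1.52 for Dsc2. Without control 1 and DKO 2, none of the 3 was called (adjusted p of 0.0652 for Cdh2, 0.0572 for Pkp2 and 0.122 for Dsc2 in edgeR), with log2 fold changes of -0.87, -0.75 and 1.25. In that fit Lsr, the gene of a protein at corners where 3 cells meet, was the only junction gene outside the 8 members that was.

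**Figure D4:**
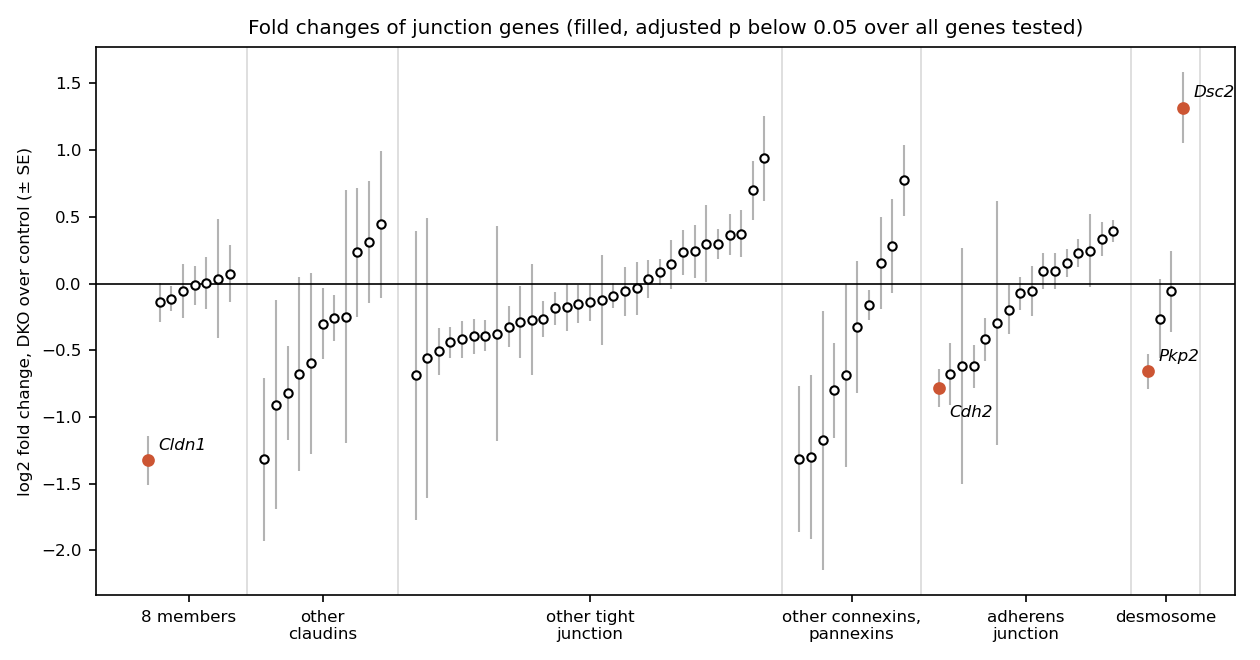
Log2 fold change, DKO over control, with its SE for the 8 members and 5 lists of other junction genes, each gene 1 point and each list sorted by fold change; filled points have an adjusted p below 0.05 over all genes tested. The members other than Cldn1 lie between -0.14 and 0.07, and the filled points outside the 8 members are Cdh2, Pkp2 and Dsc2.

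The genes whose level across the 8 libraries was most like that of Cldn1 were sought by Pearson's r of log2 CPM, among the 11581 genes that averaged 5 CPM or more. They were Hif1a, the gene of a hypoxia-inducible transcription factor, with r = 0.967, Apoa1, the gene of the main protein of high-density lipoprotein, with r = 0.967, and B4galt1, the gene of a galactosyltransferase, with r = 0.966. All 3 values include the difference between the groups. Over the deviations from the group means r was 0.763, 0.816 and 0.754. These deviations are part of the values by which the 3 genes were picked. Hif1a was at 598, 653, 596 and 771 CPM in controls and 427, 368, 366 and 461 in DKO. With 8 libraries, which share the groups, these likenesses are a description.

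**Figure D5:**
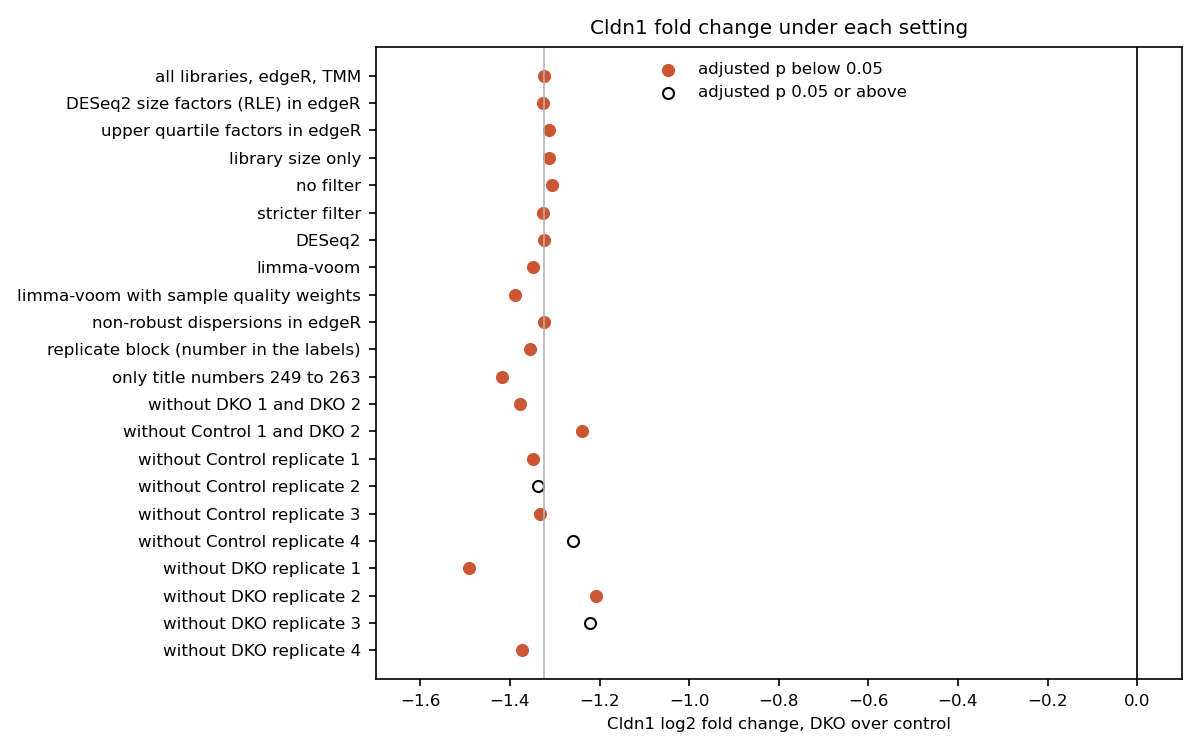
Log2 fold change of Cldn1, DKO over control, under the main analysis and 21 alternatives, 1 per line, filled where the adjusted p is below 0.05. All points lie between -1.49 and -1.21, and the 3 open points are the fits without control 2, without control 4 and without DKO 3. Every fit reuses the values by which Cldn1 was chosen.

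The libraries held 33145056 to 39257648 counts, with 23313 to 24675 genes above 0. The gene with the most counts differed between them. It was Rn18s-rs5, an 18S RNA related sequence, in DKO 1 (2.45% of counts) and DKO 2 (2.32%). In the other libraries it was Eef1a1 or Cyp11a1, at 0.486% to 0.87%. The part of this difference in the values was not tested. Granulosa markers summed to 2669 to 3749 CPM in controls and 3221 to 4213 in DKO, theca and interstitial markers to 3088 to 5585 and 2858 to 6191, smooth muscle markers to 2609 to 4404 and 2046 to 3346, and leukocyte markers to 76.4 to 115 and 62.9 to 80.2. Of the 8 marker lists, edgeR called 0 genes. An unadjusted p under 0.05 was found for 4 endothelial, 1 granulosa, 1 theca, 3 smooth muscle and 2 leukocyte markers. The share of all genes under that cut is not given, so nothing is read from these counts. DESeq2 called Foxl2, Aldh1a1, S100a8 and S100a9, beside 1072 of all 16806 genes it tested. All 11 endothelial markers tested had a log2 fold change above 0, with a median of 0.37. Limma-voom with sample quality weights, which called 1651 of 16870 genes in all, called Egfl7, Kdr, Tek and Tie1 higher in DKO. It also called Foxl2 higher, and Aldh1a1 and Hhip lower. Of the smooth muscle markers, 8 of 9 were below 0, with a median of -0.46. Their part in the values of the other junction genes was not tested. Insr was at 140.05 to 162 CPM in controls and 112 to 148 in DKO, and Igf1r at 196 to 263.3 and 199.6 to 247, counted over the whole gene and over cells with and without Cre. Pgr was at 2.42 to 6.50 CPM in controls and 1.12 to 2.33 in DKO. The sample titles carry numbers whose meaning the labels do not state, and control 1, DKO 1 and DKO 2 have the lowest. Among the other 5 samples, 3 controls and 2 DKO, the Cldn1 log2 fold change was -1.42 with an adjusted p of 0.0243 in edgeR's test.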

How the data were processed

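For each library the authors deposited raw counts per gene. Per the file headers, these came from featureCounts (Subread 1.5.2), with reverse-strand counting over the exons of the GRCm38.p5 RefSeq annotation. The length column of the deposited tables, the exon length of each gene in bases, was used for RPKM. The submitters' processing notes name STAR 2.4.2a, Trimmomatic 0.33 and 0.36, edgeR 3.12.0, bcl2fastq 2.17.1.14 and the build GRCm38.p3 as well, without roles. Each table held 41591 gene IDs, of which 40290 (96.9%) had a symbol in a RefSeq table of GRCm38.p6, used for names and promoter sequences. Coordinates are those of the count tables.

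Genes were kept by filterByExpr and tested with edgeR 4.0.16 (R 4.3.3): TMM factors (0.943 to 1.06), a quasi-likelihood F-test with robust dispersions, two-sided, no covariate, Benjamini-Hochberg adjustment over 16870 genes and a threshold of 0.05. The SE is the log2 fold change divided by the square root of F. The biological coefficient of variation was 0.281. Within each group every pair of libraries differed by more than counting noise (reduced chi-square 25.1 to 143), so none was treated as a library deposited again and all 8 entered as separate samples. This does not show whether their spread is biological or technical. The DKO samples were not equally far apart. The value was 34.4 for DKO 1 with DKO 2 and 25.1 for DKO 3 with DKO 4. It was 107 to 143 for every pair across these. In controls it ran from 27.4 (controls 2 and 4) to 142 (controls 1 and 3). The replicate numbers of the labels are not stated to pair samples. Alternatives used other scalings and filters, DESeq2 1.42.0, limma-voom (limma 3.58.1), a replicate block and left-out libraries.

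The members and the lists of junction and marker genes were chosen with earlier results of these data known. Named were all members, called genes of each junction list or else the gene with the smallest adjusted p, the most abundant gene per length of each list, and the 3 genes most like Cldn1. Other genes named in the text, among them Cldn2, Cldn3, Cldn5, Cldn7, Cldn10, Cldn15, Cdh1, Lsr, Marveld2, F11r and Zp3, were chosen after their values were seen. No protein sequences were used here. Cldn25, Cldn26 and Pals1 were not analysed here. Of the genes this rule names, 1 is not reported here.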

Additional observations from a re-analysis of the deposited data

Results flagged for a closer look

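In 3 of 44 groups of 4 libraries examined, 1 library lay farther from the others than Dixon's critical value allows. Chance alone flags about 1 in 20 such groups if they are independent. These groups share libraries, and some share values, so nothing is read from the count. The 44 groups did not cover every gene named above. Krt19, at 178 CPM in control 1 and 19.4 to 22.3 in the other controls, was not among them. Summed claudin RPKM in DKO 2 was 58.9, against 35.4 to 36.8 in the other DKO ovaries. The share of Cldn1 among claudins was 11.7% in control 1, against 21.3% to 23.1% in the other controls. Panx1 in DKO 2 was at 17.5 CPM, against 20.6 to 21.1 in the other DKO ovaries. Control 1 and DKO 2 are the libraries with the highest Ovgp1, 1147 and 724 CPM, and the part of that tissue in these values was not tested.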

How the results depend on the processing

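With 4 libraries per group, single libraries set many calls. Leaving out 1 library moved the number of called genes from 212 to between 2 (without control 2) and 506 (without control 3), the members called to between 0 and 1, the Cldn1 log2 fold change to between -1.49 and -1.21, and the other junction genes called from 3 to between 0 and 5. The whole-table count was 1072 of 16806 genes with DESeq2 and 1651 of 16870 with limma-voom and sample quality weights. It was 64 of 17502 without DKO 1 and DKO 2 and 97 of 16839 without control 1 and DKO 2. Other junction genes called were 9 with DESeq2, 13 with quality weights, and 1 each with limma-voom, with non-robust dispersions, without DKO 1 and DKO 2 and without control 1 and DKO 2. The cause was not tested. With the replicate number as a block, 743 genes, 6 other junction genes and Cldn1 (log2 -1.36, adjusted p = 0.0110) were called. Deviations of same-numbered samples correlated at 0.156, -0.359, 0.312 and 0.468. DKO 2 correlated best with control 1, at 0.638, the other library with high Ovgp1. These values do not decide whether the numbers pair the samples. The main fit has no block because the labels state no pairing. DKO 1, DKO 3 and DKO 4 correlated best with the control of their own number and DKO 2 did not. Of the members not called, Cldn12 kept its sign in all 21 alternatives, Gjc1 in 19, Cldn11, Ocln and Tjp1 in 17, Gja1 in 15 and Gja4 in 12. Scaling moved the median of all genes by under 0.1 on the log2 scale.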
